A study of Homo sapiens with 54 samples.

Results

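HEK293T cells that received the native RfxCas13d protein with crRNA-13 (WT_S13) were compared with cells that received the same protein with a non-targeting crRNA (WT_NTG). The libraries were chosen by their names alone, without use of any measured value, and are 6 of the 54 libraries of the series, with 3 in each group. RfxCas13d is an RNA-guided ribonuclease, and crRNA-13 directs it to exon 1a of C9orf72, an exon carried by the transcript variants that also hold the intronic repeat linked to amyotrophic lateral sclerosis and frontotemporal dementia. The comparison asks how the rest of the transcriptome differed when the native protein was programmed against this target.

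Both groups were transiently transfected with 1 plasmid design, in which the CAG promoter drove RfxCas13d and the U6 promoter drove the crRNA, so the WT_NTG cells carried the effector, the vector and the transfection reagent as well. HEK293T is an established embryonic kidney line that carries the SV40 large T antigen, and no step that separated transfected from untransfected cells is described for these cultures. By the labels, cells were harvested 48 h after transfection, whereas the study's text gives a longer interval. Each of the 3 libraries of a group is an independent biological replicate by the series design. Further groups appear here only beside these values: untransfected cells (UT), cells with native RfxCas13d and another C9orf72 crRNA (WT_S3, WT_S4, WT_S7), and cells with the high-fidelity effectors N2V7 or N2V8, each with crRNA-13 or the non-targeting crRNA. The N2V8 group with crRNA-13 is so named from its titles, since its treatment label spells the effector RfxCas13d-N2V87.

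The 6 libraries held 11313806 to 13951684 estimated counts, within the 9546826 to 15099153 of the whole series. Levels are given as CPM, which sets each count against its library's TMM-scaled total, so a change in total RNA per cell was not measured. Less RNA of a gene per cell and fewer cells that express it cannot be told apart in these bulk samples. The 12 markers described for this line were all among the tested genes, and their summed level was 1980 to 2050 CPM in WT_S13 and 2140 to 2190 CPM in WT_NTG libraries, with VIM as the 1 member called lower (log2 -0.34), which fell short of the fold threshold without WT_S13 replicate 3 (-0.30) or WT_NTG replicate 3 (-0.32). Of markers of other cell types, those of blood, liver and endothelium summed to at most 2.01 CPM in any of the 6 libraries, and those of neurons and astrocytes (31.3 to 35.8 CPM in WT_S13, 28.6 to 34.1 CPM in WT_NTG) and of epithelium (11.1 to 12 CPM in WT_S13, 11.2 to 15 CPM in WT_NTG) overlapped between the groups. Neuroblastoma markers summed to 93.1 to 101 CPM in WT_S13 and 85.2 to 86.2 CPM in WT_NTG, and fibroblast markers to 27.4 to 32.9 CPM in WT_S13 and 35.0 to 35.4 CPM in WT_NTG. On the first principal component of the 6 libraries, which held 44.5% of the variance, the WT_S13 libraries lay at 22.5 to 26.7 and the WT_NTG libraries at -26.1 to -22.8.

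Cas13 enzymes bind a crRNA, and pairing of its spacer with a target RNA opens a nuclease site that cuts the bound RNA and, in many settings, neighbouring RNAs as well, which is known as collateral cleavage. C9orf72 protein works with SMCR8 and WDR41 in a complex of the endolysosomal and autophagy systems. HEK293T cells divide fast and bind p53 through the large T antigen, so cell cycle and p53 target genes are read here with that in view.

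C9orf72, the target, lies on chromosome 9 from 27546546 to 27573866 (GRCh38, Entrez 203228). Its level was 26.5, 25.9 and 26.7 CPM in the WT_S13 libraries and 29.02, 33.2 and 25.6 CPM in the WT_NTG libraries, with 27.5, 30 and 29.4 CPM in UT libraries. The WT_S13 values lay close together and within the range of the WT_NTG values. The log2 change, with its standard error (SE), was -0.15 ± 0.09 (95% interval -0.33 to 0.03; adjusted p = 0.279), which is -9.73% with an interval of -20.4 to 2.42%. All transcript variants are summed in this gene value, so the variants that carry exon 1a were not measured on their own. Without WT_NTG replicate 2, the highest of the 6 libraries, the log2 change was -0.05. Of its partners, WDR41 had 133, 131 and 139 CPM in WT_S13 against 149, 156 and 156 CPM in WT_NTG libraries, a log2 change of -0.19 ± 0.05 (adjusted p = 0.00509) that was under the fold needed for a call, and SMCR8 had a log2 change of -0.09 ± 0.07 (adjusted p = 0.43).

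The start of C9orf72 transcript variant 2 is shown because the repeat lies just upstream of it. The window runs from 250 bases before to 50 bases after the start of RefSeq transcript variant 2 and holds 3 directly joined copies of the hexamer GGGGCC in the reference, in capitals, which begin 65, 59 and 53 bases before that start. The hexamer on either strand occurred in 39.7% of the 27305 genes with such windows. The sequence is from RefSeq (GRCh38.p14), chr9:27573432-27573731, minus strand, read 5′ to 3′.
C9orf72: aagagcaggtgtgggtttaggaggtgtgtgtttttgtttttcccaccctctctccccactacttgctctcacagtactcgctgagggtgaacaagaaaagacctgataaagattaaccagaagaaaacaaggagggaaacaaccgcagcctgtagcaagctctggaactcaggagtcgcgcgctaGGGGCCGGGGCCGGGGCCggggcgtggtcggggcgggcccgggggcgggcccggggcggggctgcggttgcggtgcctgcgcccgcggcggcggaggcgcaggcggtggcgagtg

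Across the transcriptome, 1656 of 15378 tested genes (10.8%) were called, where a call needed the larger mean to exceed the smaller by over 25% and an adjusted p under 0.05 in edgeR's quasi-likelihood test. Of these, 1004 were higher in WT_S13 (6.53% of those tested) and 652 were lower (4.24%). The median log2 change was 0.55 among the genes called higher and -0.43 among those called lower, against 0.0034 over all tested genes. A change of over 2-fold was found for 298 genes called higher and 33 called lower. Values of the 2 groups did not overlap for 39.2% of all tested genes (6023), and for 97.4% of the called genes. The plot of change against level shows the higher calls spread over the whole range and with their largest changes at low levels.

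**Figure D1:**
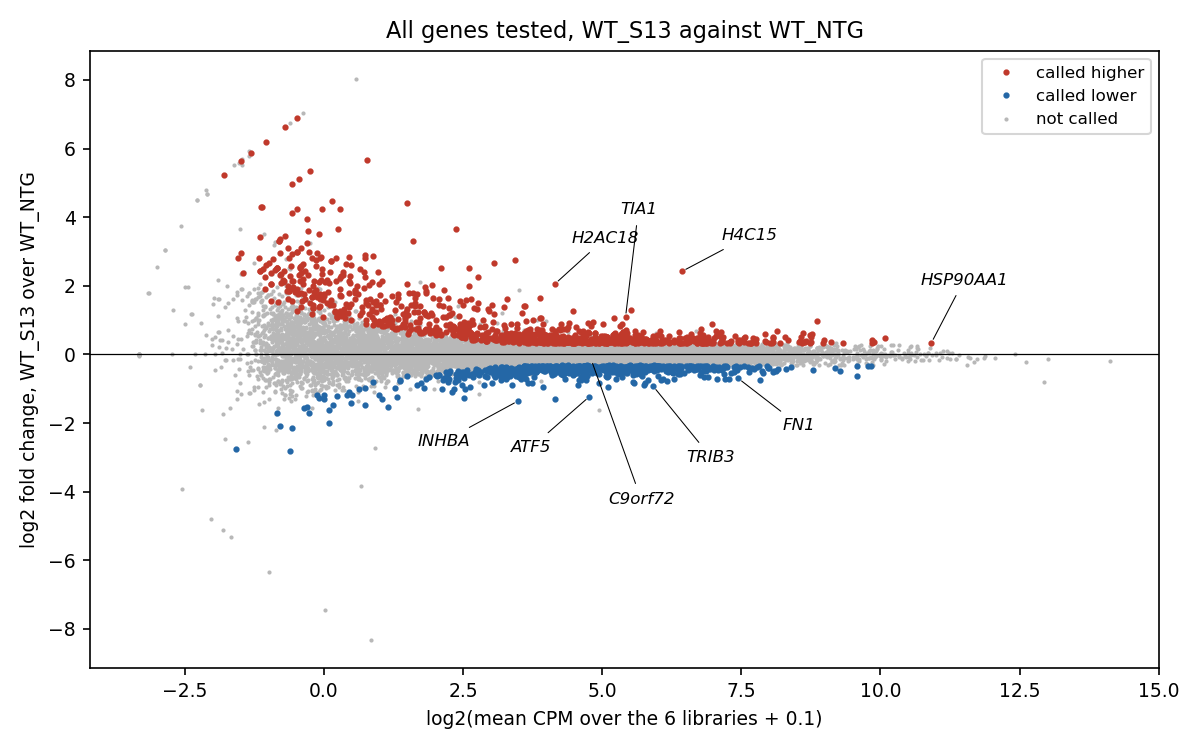
Log2 fold change of WT_S13 over WT_NTG (vertical axis) against the mean level over the 6 libraries (horizontal axis, log2 of CPM with a small offset) for each tested gene, coloured by whether it was called higher, called lower or not called. The 1004 genes called higher reach further from 0 than the 652 called lower, and C9orf72 sits close to 0.

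Among genes with a mean log2 CPM of 2 or more and no overlap between the groups, the largest rises included histones, non-coding RNAs and readthrough loci. OVGP1, which encodes an oviduct glycoprotein, had 10.7, 9.83 and 12.9 CPM in WT_S13 and 3.15, 2.38 and 1.495 CPM in WT_NTG libraries, a 4.8-fold rise (log2 2.26 ± 0.19; adjusted p = 1.52e-13). NRAV, a long non-coding RNA known for its link to antiviral genes, rose by 1.602 ± 0.20 on the log2 scale (adjusted p = 1.99e-08). LNCTAM34A, a non-coding RNA transcribed next to the miR-34a gene, rose by 1.58 ± 0.20 (adjusted p = 5.24e-08), and CYP1A1, a cytochrome P450 of xenobiotic metabolism, by 1.45 ± 0.19 (adjusted p = 4.4e-08). The largest of these rises were in loci that run from one gene into the next. RPL36A-HNRNPH2 had 21.7, 13.7 and 20.5 CPM in WT_S13 against 3.15, 3.26 and 1.99 CPM in WT_NTG libraries (log2 2.75 ± 0.63; adjusted p = 0.00164), and CZ1P-ASNS rose by 2.51 ± 0.29 on the log2 scale (adjusted p = 3.43e-08). Both share reads with their parent genes, so the split of reads between locus and parent is uncertain. Of 108 readthrough loci tested, 9 were called higher and 2 lower. The higher calls lay near the 6.53% share of all tested genes, of which 4.24% were called lower.

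The largest falls under the same conditions were INHBA, AKNA, CRYAB and ATF5. INHBA, which encodes a subunit of activin, had 5.96, 6.98 and 5.89 CPM in WT_S13 and 12.04, 15.2 and 20.6 CPM in WT_NTG libraries, a fall by 1.36 on the log2 scale (SE 0.16; adjusted p = 6.19e-09). AKNA, an AT-hook protein of the centrosome, had 9.59, 9.48 and 11.5 CPM in WT_S13 against 23.9, 24.2 and 27.5 CPM in WT_NTG libraries (log2 -1.305 ± 0.19; adjusted p = 5.5e-06). In both genes every WT_S13 library was lower than every WT_NTG library. The chaperone CRYAB had 3.12, 3.103 and 3.64 CPM in WT_S13 against 7.19, 7.31 and 9.32 CPM in WT_NTG libraries (log2 -1.27 ± 0.39; adjusted p = 0.0177), and its adjusted p was 0.0558 without WT_S13 replicate 1, 0.0501 without WT_S13 replicate 2 and 0.07 without WT_NTG replicate 3. TNFRSF12A, the receptor of the cytokine TWEAK, had a log2 change of -0.96 ± 0.13 (adjusted p = 2.87e-07), and CALCB, a calcitonin gene-related peptide, of -0.94 ± 0.10 (adjusted p = 2.44e-09).

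**Figure D2:**
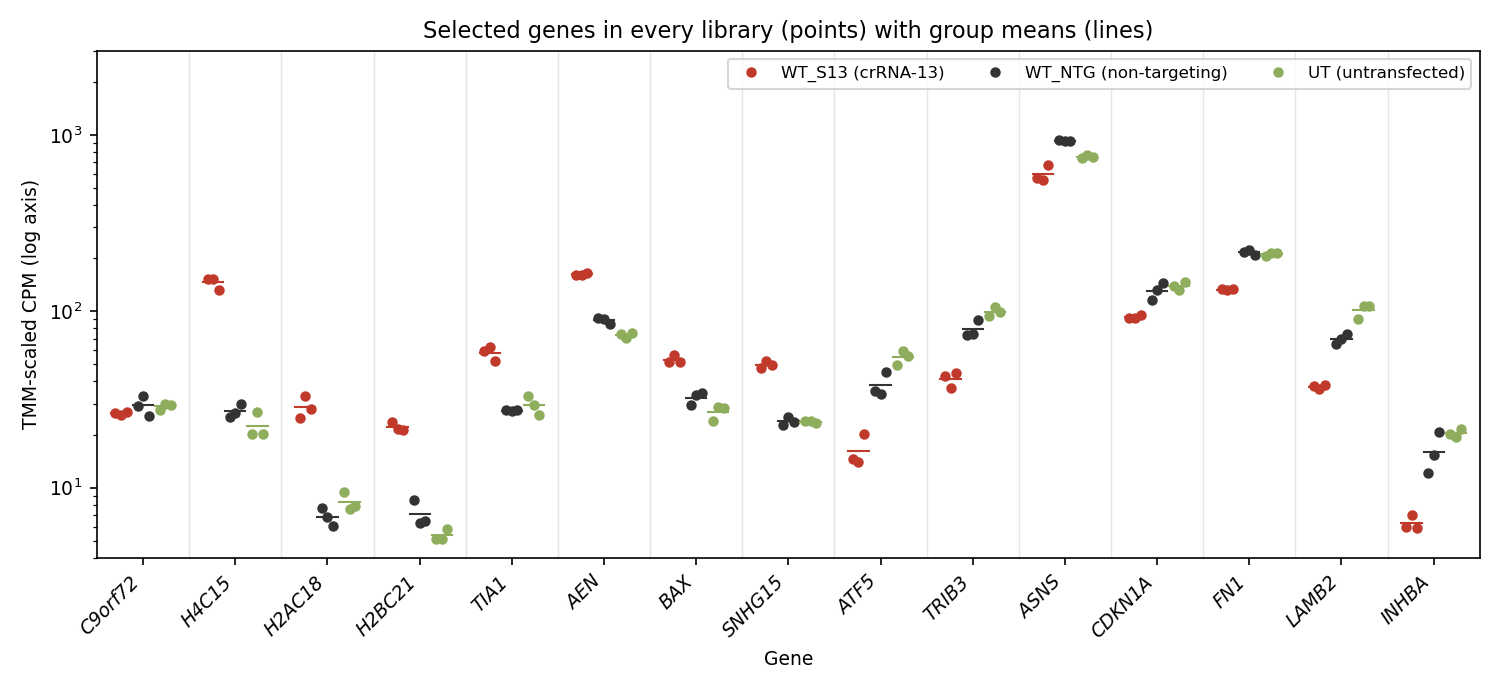
Level of 15 genes in each WT_S13, WT_NTG and UT library, as TMM-scaled CPM on a log axis, with each group's mean as a line. C9orf72 overlaps between WT_S13 and WT_NTG, histones, TIA1, AEN, BAX and SNHG15 lie higher in WT_S13, and ATF5, TRIB3, ASNS, CDKN1A, FN1, LAMB2 and INHBA lie lower.

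The replication-dependent histone genes were higher in WT_S13 as a group. These genes encode the core and linker histones of newly copied chromatin, are expressed in S phase under the activator NPAT, and yield mRNAs that end in a stem-loop in place of a poly(A) tail. Of 65 listed genes 29 had enough counts to be tested, and 17 of the 29 were called higher and none lower, with a median log2 change of 1.35. Enough counts in any 3 of the 54 libraries sufficed for a test. A member rare in WT_NTG could thus be tested yet hardly be called lower, so the absence of lower calls is partly set by this filter. The study itself names nucleosome genes for these samples, so the choice of this list is not independent evidence. By class, 1 of 2 H1, 5 of 6 H2A, 5 of 8 H2B, 3 of 6 H3 and 3 of 7 H4 genes were called higher. Their summed share of all counts was 0.0409, 0.0429 and 0.0387% in WT_S13 libraries, against 0.0154, 0.0133 and 0.0140% in WT_NTG libraries and 0.0125 to 0.0130% in UT libraries. The libraries were selected for poly(A), so the values cover only the histone RNA that this selection retained.

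H4C15 (chromosome 1, 149844488 to 149861240, Entrez 554313), a histone H4 gene, had 152, 153 and 133 CPM in WT_S13 libraries and 25.3, 26.4 and 29.8 CPM in WT_NTG libraries. That is 146 ± 11.5 CPM in WT_S13 and 27.2 ± 2.31 CPM in WT_NTG (SD, n = 3 each), a 5.36-fold difference (log2 2.42 ± 0.15, 95% interval 2.11 to 2.74; adjusted p = 1.14e-13). A near-identical copy, H4C14, lies in the same cluster, so its reads cannot be assigned with certainty. H2AC18, an H2A gene nearby on chromosome 1, had 24.9, 32.9 and 27.8 CPM in WT_S13 against 7.68, 6.83 and 6.05 CPM in WT_NTG libraries (log2 2.06 ± 0.14; adjusted p = 1.61e-16). H2BC21, an H2B gene of the same cluster, had 23.4, 21.6 and 21.2 CPM in WT_S13 against 8.49, 6.27 and 6.48 CPM in WT_NTG libraries (log2 1.65 ± 0.13; adjusted p = 8.6e-15). For all 3 genes the lowest WT_S13 library was at least 2-fold above the highest WT_NTG library. On chromosome 6, which holds the larger cluster, the H3 gene H3C6 had 11.2, 9.74 and 7.9 CPM in WT_S13 against 2.42, 2.54 and 2.21 CPM in WT_NTG libraries (log2 2.005 ± 0.22; adjusted p = 6.34e-10). H1-2, a linker histone gene of that cluster, had 65.4, 72.1 and 58.2 CPM in WT_S13 against 28.6, 23.4 and 28.3 CPM in WT_NTG libraries (log2 1.28 ± 0.13; adjusted p = 4.84e-09). The H2A gene H2AC6, the H2B genes H2BC5, H2BC11 and H2BC17 and the H4 gene H4C8 rose by 2.08, 1.35, 1.78, 1.72 and 2.56 on the log2 scale (adjusted p = 5.69e-05, 8.22e-08, 9.45e-07, 0.00837 and 0.000617). Some called members were rare, and H4C4 held 48 counts over the WT_S13 libraries and 1 count over the WT_NTG libraries.

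Histones made outside S phase from polyadenylated mRNAs differed less, with 3 of 11 called higher, 5 of 11 without WT_S13 replicate 3, and a median log2 change of 0.204. The linker histone gene H1-10 and the H2A gene H2AJ rose by 0.50 ± 0.05 and 0.70 ± 0.12 on the log2 scale (adjusted p = 6.58e-10 and 1.51e-05). The activator NPAT had a log2 change of -0.06 ± 0.06 (adjusted p = 0.537). Of 20 genes for histone gene transcription and mRNA end formation, 2 were called higher and 2 lower, with a median log2 change of 0.0447. The higher pair was SRRT, which links the cap-binding complex to RNA processing, at 0.51 ± 0.06 (adjusted p = 9.29e-09) and the cleavage factor CSTF3 at 0.43 ± 0.07 (adjusted p = 8.01e-06).

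The promoters of H2AC18 and H2BC21 are shown because both genes rose and lie in 1 cluster. Capitals mark each match, on either strand, to CCAAT (the NF-Y motif), TATAAA (the TATA box) and ATTTGCAT (the octamer bound by OCT1); none of the marked motifs overlaps another. In H2AC18, CCAAT begins 68 and, on the reverse strand, 97 bases before the start and TATAAA begins 31 bases before it. In H2BC21, CCAAT begins 142, 77 and, on the reverse strand, 170 bases before the start, TATAAA begins 30 and, on the reverse strand, 212 bases before it, and ATTTGCAT begins 46 bases before it. Of the 28 tested histone genes with a window, 22 held CCAAT, 21 held TATAAA and 10 held ATTTGCAT, against 39.7, 14 and 2.19% of all 27305 genes. Among the 17 called histone genes these matches were in 14, 13 and 8. Both windows are from RefSeq (GRCh38.p14), chr1:149842701-149843000 for H2AC18 and chr1:149886633-149886932 for H2BC21, both on the minus strand.
H2AC18: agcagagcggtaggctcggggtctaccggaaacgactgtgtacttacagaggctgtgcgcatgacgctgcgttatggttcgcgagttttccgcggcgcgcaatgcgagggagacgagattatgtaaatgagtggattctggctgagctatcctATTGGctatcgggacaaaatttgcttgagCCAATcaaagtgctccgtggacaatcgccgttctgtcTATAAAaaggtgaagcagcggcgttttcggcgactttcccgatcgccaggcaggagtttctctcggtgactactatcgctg
H2BC21: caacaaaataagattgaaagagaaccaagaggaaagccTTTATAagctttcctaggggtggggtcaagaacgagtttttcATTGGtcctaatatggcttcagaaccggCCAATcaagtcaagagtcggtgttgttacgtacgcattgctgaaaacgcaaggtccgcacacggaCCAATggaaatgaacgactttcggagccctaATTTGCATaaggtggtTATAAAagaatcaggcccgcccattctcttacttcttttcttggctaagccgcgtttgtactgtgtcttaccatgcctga

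Genes of splicing and RNA binding had more members called higher than lower, as did all tested genes (6.53% higher and 4.24% lower). The higher calls among the hnRNP and the stress granule genes below lay near that share. Of 14 SR proteins, which select splice sites, 6 were called higher and none lower (median log2 change 0.209). SRSF3 had 442, 452 and 450.5 CPM in WT_S13 against 335, 317 and 290.2 CPM in WT_NTG libraries (log2 0.51 ± 0.07; adjusted p = 8.4e-08), and SRSF2 and SRSF7 rose by 0.53 ± 0.07 and 0.48 ± 0.07 on the log2 scale (adjusted p = 2.61e-08 and 1.15e-06). Of 6 splicing kinases, which phosphorylate SR proteins, CLK3 was called lower (log2 -0.35 ± 0.07; adjusted p = 7.16e-05) and none higher, and CLK3 fell short of the fold threshold without WT_NTG replicate 2 (-0.30). Among 22 hnRNP genes, which encode packaging proteins of nascent RNA, 2 were called higher and none lower. HNRNPA2B1 had 1233, 1296 and 1248 CPM in WT_S13 against 922, 919 and 874 CPM in WT_NTG libraries (log2 0.48 ± 0.06; adjusted p = 3.32e-08). TIA1, an RNA-binding protein that forms stress granules and is linked to amyotrophic lateral sclerosis, was the 1 called gene among 12 disease-linked and stress granule genes. It had 59.4, 62.4 and 52.3 CPM in WT_S13 against 27.6, 27.2 and 27.4 CPM in WT_NTG libraries, with no overlap (log2 1.08 ± 0.12; adjusted p = 1.6e-08). Over the hnRNP and stress granule genes together, 3 were called higher, and 6 without WT_NTG replicate 1. TARDBP, the gene of TDP-43, had a log2 change of 0.20 ± 0.06 (adjusted p = 0.0096), under the fold needed for a call. Of 41 snRNP proteins 6 were called higher and none lower, among them SNRNP70, a U1 component (log2 0.55 ± 0.09; adjusted p = 2.23e-05), SNRPG, a ring protein shared by several snRNPs (0.46; adjusted p = 0.00178), and the helicase DDX46 (0.49; adjusted p = 2.16e-06). PTBP2, a splicing repressor known from neurons, rose by 0.53 ± 0.09 (adjusted p = 1.85e-05), and TRA2A, which binds splicing enhancers, by 0.55 ± 0.06 (adjusted p = 1.45e-09).

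tRNA processing genes were higher in number, with 18 of 78 called higher and none lower (median log2 change 0.177), of which 12 of 55 encode modification enzymes and 6 of 23 factors that trim or join tRNA ends. This list follows a term that the study names for these samples and is not independent evidence of its direction. ADAT3, a subunit of the adenosine deaminase of tRNA, had 5.396, 5.78 and 6.196 CPM in WT_S13 against 1.94, 2.22 and 1.35 CPM in WT_NTG libraries (log2 1.66 ± 0.22; adjusted p = 1.32e-07). TRMT13, a methyltransferase, had 24.1, 24.1 and 25.02 CPM in WT_S13 against 15.6, 13.4 and 14.7 CPM in WT_NTG libraries (log2 0.75 ± 0.09; adjusted p = 2.3e-08), and TRMU, which thiolates mitochondrial tRNA, rose by 0.71 ± 0.11 (adjusted p = 2.15e-06). POP5 and RPP38, subunits of the tRNA 5′ end nucleases RNase P and MRP, rose by 0.50 ± 0.11 and 0.46 ± 0.08 (adjusted p = 0.000863 and 1.49e-05), and the tRNA splicing kinase CLP1 by 0.38 ± 0.10 (adjusted p = 0.0034). Of 74 nucleolar ribosome biogenesis genes 10 were called higher and none lower, among them UTP14A and NHP2 at 0.59 ± 0.08 and 0.52 ± 0.07 (adjusted p = 7.76e-08 and 5.66e-07), and 6 were called without the factor of unwanted variation. By contrast, 0 of the 79 cytosolic ribosomal protein genes were called in edgeR's test, and their median log2 change was -0.0135.

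Small nucleolar RNA host genes, whose introns carry guide RNAs and whose spliced products are in many cases degraded during translation, had 9 of 28 members called higher and 1 lower. SNHG15 had 47.5, 52.1 and 49.9 CPM in WT_S13 against 22.7, 25.1 and 23.6 CPM in WT_NTG libraries (log2 1.06 ± 0.09; adjusted p = 1.23e-13). SNHG30 and SNHG12 rose by 1.42 ± 0.13 and 1.27 ± 0.16 on the log2 scale (adjusted p = 6.5e-12 and 1.53e-08). SNHG1 was the member called lower, at -0.34 ± 0.08 (adjusted p = 0.00206), and fell short of the fold threshold without WT_S13 replicate 2 (-0.31) or WT_NTG replicate 3 (-0.24). Of 42 RNA decay genes, which include the nonsense-mediated decay factors that act on such host RNAs, 1 was called higher and 1 lower.

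Mitochondrial and proteasome genes formed a further set of small rises. Of 78 mitochondrial ribosomal proteins, which translate the mitochondrial genome, 17 were called higher and none lower (median 0.184). MRPL32 had 32.4, 30.2 and 30.6 CPM in WT_S13 against 19.6, 18.03 and 19.9 CPM in WT_NTG libraries (log2 0.69 ± 0.09; adjusted p = 1.48e-07), and MRPL51, MRPS14 and MRPS28 rose by 0.47, 0.48 and 0.52 (adjusted p = 1.52e-07, 5.7e-06 and 0.000193). Of 77 nuclear genes of oxidative phosphorylation 13 were called higher and none lower (median 0.19), 9 of them among 38 complex I genes. The complex I subunit NDUFB3 had 61.9, 53.6 and 55.1 CPM in WT_S13 against 38.1, 37.2 and 40.9 CPM in WT_NTG libraries (log2 0.56 ± 0.09; adjusted p = 1.69e-05), and COX7B of complex IV rose by 0.56 ± 0.10 (adjusted p = 4.27e-05). Among 32 proteasome subunits 5 were called higher, but 3 without WT_S13 replicate 2 and 1 without WT_NTG replicate 3, and the libraries of both groups were separate and higher in WT_S13 for 24 of the 32. Over all tested genes the libraries were separate for 39.2%, counted in either direction. PSMD1, a scaffold of the regulatory particle, kept its call each time a library was left out (log2 0.36 ± 0.06; adjusted p = 2.26e-05). These rises were under 2-fold in every gene named in this paragraph.

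**Figure D3:**
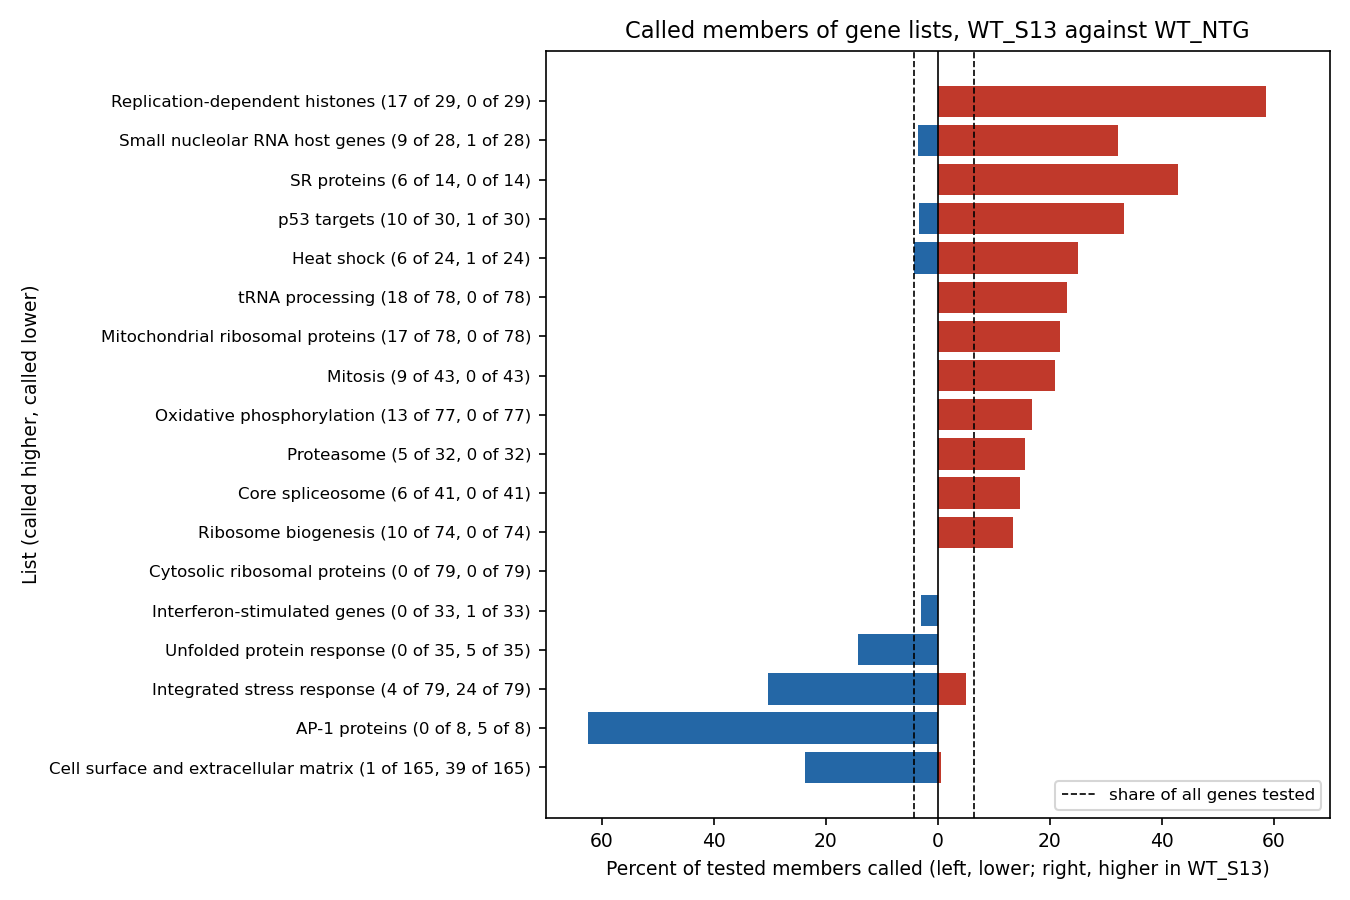
For each gene list, the percent of its tested members called higher (to the right) and called lower (to the left) in WT_S13 against WT_NTG. Dashed lines give the shares of all tested genes, 6.53% higher and 4.24% lower. Histones reach furthest to the right, and AP-1 and stress response genes furthest to the left.

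Targets of p53, the tumour suppressor that large T antigen binds in this line, were higher where called, with CDKN1A as the exception. Of 30 targets, 10 were called higher and 1 lower (median log2 change 0.164). AEN, an apoptosis-linked nuclease, had 161.6, 161 and 165 CPM in WT_S13 against 91.3, 90.4 and 84.98 CPM in WT_NTG libraries, with no overlap (log2 0.87 ± 0.05; adjusted p = 5.05e-18). EDA2R, a member of the TNF receptor family, had 19.8, 22.1 and 17.9 CPM in WT_S13 against 9.78, 8.89 and 10.04 CPM in WT_NTG libraries (log2 1.05 ± 0.11; adjusted p = 6.18e-10), and the kinase PLK2 rose by 0.75 ± 0.10 (adjusted p = 2.82e-07). CDKN1A, the cell cycle inhibitor p21, went the other way, with 91.6, 91.3 and 94.95 CPM in WT_S13 against 116, 132 and 145 CPM in WT_NTG libraries (log2 -0.50 ± 0.07; adjusted p = 2.25e-07). MDM2, the ubiquitin ligase of p53, had a log2 change of 0.10 ± 0.05 with overlapping libraries (adjusted p = 0.225).

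In the intrinsic apoptosis pathway, BAX, a pore former of the mitochondrial outer membrane, had 51.3, 56.2 and 51.7 CPM in WT_S13 against 29.4, 33.5 and 34.4 CPM in WT_NTG libraries (log2 0.71 ± 0.07; adjusted p = 6.02e-11). BCL2, which restrains such pores, had 16.8, 20.3 and 16.3 CPM in WT_S13 against 29.5, 23.4 and 27.1 CPM in WT_NTG libraries (log2 -0.59 ± 0.16; adjusted p = 0.0071). CYCS, cytochrome c, rose by 0.50 ± 0.11 (adjusted p = 0.000898), and HRK, a BH3-only protein, had a log2 change of -0.49 ± 0.12 (adjusted p = 0.00157). Over the 26 tested pathway genes, whose list likewise follows a term of the study for these samples, 3 were called higher and 2 lower. These few calls were not far above the shares of all tested genes, 6.53% higher and 4.24% lower. The median log2 change of the list was 0.0147. Of 43 mitosis genes 9 were called higher and none lower, among them CCNB1, the mitotic cyclin, at 174, 170.4 and 163 CPM in WT_S13 against 121, 119 and 115 CPM in WT_NTG libraries (log2 0.51 ± 0.05; adjusted p = 2.56e-11), and KIF20A and DLGAP5 at 0.49 ± 0.06 and 0.46 ± 0.06 (adjusted p = 2.67e-08 and 1.89e-08). Of 51 genes of DNA replication in S phase, 1 was called higher and 3 lower, the lower calls near the 4.24% share of all tested genes. LIG1, the ligase of the lagging strand, had a log2 change of -0.43 ± 0.10 (adjusted p = 0.000726), E2F2, an activator of S phase genes, of -0.43 ± 0.08 (adjusted p = 2.49e-05), and PCNA, the replication clamp, of 0.03 ± 0.05 (adjusted p = 0.758).

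Genes of the integrated stress response were lower in WT_S13. In this pathway phosphorylation of eIF2 slows translation and favours the transcription factor ATF4, whose targets supply amino acids and feed back on the pathway. Of 79 tested genes 24 were called lower and 4 higher, with a median log2 change of -0.199. The transcription factors and feedback genes led, with 9 of 14 called lower (median -0.415), followed by 6 of 11 amino acid transporters (median -0.33), 3 of 16 synthesis enzymes (median -0.221) and 3 of 20 cytosolic tRNA synthetases (median -0.109). ATF5, a transcription factor translated under eIF2 phosphorylation, had 14.6, 14.1 and 20.1 CPM in WT_S13 against 35.2, 34.1 and 44.98 CPM in WT_NTG libraries (log2 -1.23 ± 0.22; adjusted p = 7.29e-05). TRIB3, a feedback inhibitor of ATF4, had 43.2, 36.6 and 44.8 CPM in WT_S13 against 73.5, 74.8 and 89.3 CPM in WT_NTG libraries (log2 -0.93 ± 0.14; adjusted p = 1.07e-05). For ATF5 and TRIB3 the WT_NTG libraries were all above the WT_S13 libraries by a wide margin, with WT_NTG replicate 3 the highest. DDIT4, which restrains mTORC1, had a log2 change of -0.52 ± 0.07 (adjusted p = 6.09e-07), CHAC1, a glutathione-degrading enzyme, of -0.51 ± 0.12 (adjusted p = 0.00164), and CEBPB of -0.56 ± 0.12 (adjusted p = 0.000393). ATF4 itself had 722, 738 and 783 CPM in WT_S13 against 839.5, 798 and 844 CPM in WT_NTG libraries, a log2 change of -0.15 ± 0.05 (adjusted p = 0.0406) that was below the fold threshold, and DDIT3, the factor CHOP, had -0.38 ± 0.16 (adjusted p = 0.104).

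Among the enzymes and transporters downstream, ASNS, asparagine synthetase, had 567, 556 and 679 CPM in WT_S13 against 937, 918 and 921 CPM in WT_NTG libraries (log2 -0.62 ± 0.12; adjusted p = 0.000169). The cystine importer SLC7A11 had 28.8, 30.3 and 43.1 CPM in WT_S13 against 66.4, 56.7 and 60.1 CPM in WT_NTG libraries (log2 -0.84 ± 0.18; adjusted p = 0.000788). For both genes WT_S13 replicate 3 was the highest of its group and still below each WT_NTG library. PCK2, a mitochondrial enzyme that makes phosphoenolpyruvate, and ALDH1L2, of mitochondrial folate metabolism, had log2 changes of -0.70 ± 0.12 and -0.65 ± 0.08 (adjusted p = 2.9e-05 and 3.06e-07). The amino acid carriers SLC1A4, SLC7A3 and SLC6A9 changed by -0.75, -0.74 and -0.52 (adjusted p = 1.49e-05, 4.54e-07 and 0.00381), and the synthetases AARS1 and CARS1 by -0.40 ± 0.05 and -0.40 ± 0.07 (adjusted p = 1.4e-07 and 1.35e-05). SLC3A2, the partner chain of SLC7A11, went the other way at 0.36 ± 0.05 (adjusted p = 4.62e-07). Secreted factors were split, with GDF15, a stress-induced hormone, at 7.53, 5.78 and 6.12 CPM in WT_S13 against 1.54, 3.49 and 3.701 CPM in WT_NTG libraries (log2 1.15 ± 0.22; adjusted p = 0.000128), FGF21 at 44 counts in WT_S13 and 8 counts in WT_NTG over 3 libraries each, and STC2 and VEGFA at -0.41 ± 0.08 and -0.38 ± 0.07 (adjusted p = 0.000213 and 0.000135). The kinases EIF2AK2, EIF2AK3 and EIF2AK4, which phosphorylate eIF2, had log2 changes of -0.10, -0.24 and -0.09 (adjusted p = 0.406, 0.0208 and 0.246), all under the fold needed for a call.

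The promoters of FGF21 and CHAC1 are shown because these genes, both known targets of ATF4, moved in opposite directions. Capitals mark the 8-base composite TTGCATCA of a C/EBP and an ATF half-site, which was searched on both strands and begins 54 bases before the start of FGF21 and 209 bases before that of CHAC1. Of the 63 stress response genes with a window, 15 held this match, against 1.08% of all 27305 genes. It was found in 7 of the 20 called lower and 1 of the 4 called higher. Both windows are from RefSeq (GRCh38.p14) on the plus strand, chr19:48755274-48755573 for FGF21 and chr15:40953221-40953520 for CHAC1.
FGF21: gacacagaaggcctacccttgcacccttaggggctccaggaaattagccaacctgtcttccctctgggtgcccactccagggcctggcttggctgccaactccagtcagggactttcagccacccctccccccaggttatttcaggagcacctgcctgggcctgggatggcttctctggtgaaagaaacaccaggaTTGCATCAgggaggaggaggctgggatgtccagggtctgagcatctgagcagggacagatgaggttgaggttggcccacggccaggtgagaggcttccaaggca
CHAC1: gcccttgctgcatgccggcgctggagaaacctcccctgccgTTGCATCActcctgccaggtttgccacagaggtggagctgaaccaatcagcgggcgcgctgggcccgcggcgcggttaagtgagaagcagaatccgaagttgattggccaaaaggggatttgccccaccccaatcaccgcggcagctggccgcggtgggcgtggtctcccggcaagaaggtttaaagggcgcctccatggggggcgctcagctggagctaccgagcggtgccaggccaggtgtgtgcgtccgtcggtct

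The unfolded protein response, which raises the folding capacity of the endoplasmic reticulum, had 5 of 35 members called lower and none higher (median -0.176), on a list that also follows a term of the study for these samples and is not independent evidence. SEL1L and SYVN1, a receptor and a ligase of the same degradation complex, had log2 changes of -0.40 ± 0.06 and -0.40 ± 0.08 (adjusted p = 8.45e-07 and 0.000235). The sensor ERN1, also called IRE1, had -0.45 ± 0.11 (adjusted p = 0.00323), whereas HSPA5, the main luminal chaperone, had 890.2, 825 and 802 CPM in WT_S13 against 977, 1072 and 1051 CPM in WT_NTG libraries, a separate but smaller change under the fold needed for a call (log2 -0.30 ± 0.07; adjusted p = 0.00284). Chaperones and regulators of the heat shock response had 6 of 24 members called higher and 1 lower, the lower one being CRYAB. HSPA1B, an inducible HSP70, had 486, 521 and 412 CPM in WT_S13 against 326, 302 and 286 CPM in WT_NTG libraries (log2 0.63 ± 0.17; adjusted p = 0.00831), and it shares reads with its near-identical neighbour HSPA1A. HSPE1, the mitochondrial co-chaperonin, and HSPH1 rose by 0.62 ± 0.11 and 0.42 ± 0.06 (adjusted p = 4.46e-05 and 5.65e-07). The transcription factor HSF1 had a log2 change of -0.22 ± 0.07 (adjusted p = 0.0146), under the fold needed for a call.

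Genes of the cell surface and extracellular matrix were lower, on a list that was drawn up after their values had been seen and is given as a description. Of 165 tested genes 39 were called lower and 1 higher, with a median log2 change of -0.231. The called lower genes comprised 21 of 71 matrix proteins and modifiers, 7 of 44 integrins and cadherins and 11 of 50 large surface receptors. FN1, fibronectin, had 133, 132 and 133 CPM in WT_S13 against 216, 224 and 208 CPM in WT_NTG libraries (log2 -0.70 ± 0.08; adjusted p = 1.72e-08). LAMB2, a laminin chain of basement membranes, had 37.6, 36.5 and 38.3 CPM in WT_S13 against 65.4, 69.6 and 73.95 CPM in WT_NTG libraries (log2 -0.90 ± 0.11; adjusted p = 1.06e-07). Spread within a group was small for both genes beside the gap between the groups. The endocytic receptor LRP1 had 115, 123 and 112 CPM in WT_S13 against 194, 204 and 181 CPM in WT_NTG libraries (log2 -0.73 ± 0.14; adjusted p = 0.000218), and HSPG2, the proteoglycan perlecan, MRC2, a collagen receptor, and PKD1, polycystin-1, had log2 changes of -0.71 ± 0.13, -0.82 ± 0.11 and -0.90 ± 0.16 (adjusted p = 8.96e-05, 9.13e-07 and 6.42e-05). The 1 gene called higher was TNC, tenascin-C, at 0.44 ± 0.13 (adjusted p = 0.0158), which was 0.35 with an adjusted p of 0.0979 without WT_NTG replicate 3. On a second list drawn up after values were seen, 3 of 20 coat proteins of the secretory pathway were called lower, 5 without WT_S13 replicate 1, among them COPA at 553, 489.5 and 494 CPM in WT_S13 against 649.5, 761 and 752 CPM in WT_NTG libraries (log2 -0.49 ± 0.06; adjusted p = 4.64e-09).

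Immediate early genes, which answer growth factors and stress within minutes, included 5 of 8 AP-1 subunits called lower and none higher (median -0.47). JUN had 403, 374 and 350.1 CPM in WT_S13 against 467, 528 and 546 CPM in WT_NTG libraries (log2 -0.45 ± 0.08; adjusted p = 4.6e-05), and FOS, JUND, FOSL2 and ATF3 had log2 changes of -0.64 ± 0.16, -0.50 ± 0.09, -0.52 ± 0.11 and -0.49 ± 0.09 (adjusted p = 0.00268, 3.18e-05, 0.000321 and 7.82e-05). Of 41 other immediate early genes 10 were called lower and 4 higher. MYC was among the higher ones, at 91.7, 93.3 and 106 CPM in WT_S13 against 73.8, 75.1 and 58.4 CPM in WT_NTG libraries (log2 0.49 ± 0.09; adjusted p = 0.000169), and CCN1, a matricellular protein, had -0.67 ± 0.11 (adjusted p = 2.45e-05). EGR1 had a log2 change of -0.43 ± 0.17 and was not called (adjusted p = 0.0655).

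Other lists are given beside the shares of all tested genes, 6.53% called higher and 4.24% called lower. The higher calls among ZNF genes lay near the first share, and the lower calls among NF-kB targets lay above the second. Of 33 tested interferon-stimulated genes 0 were called higher and 1 lower, the lower one being IRF9, a subunit of the interferon-responsive factor ISGF3 (log2 -0.91 ± 0.20; adjusted p = 0.000684). Of 42 genes of TGF-beta, activin and BMP signalling INHBA alone was called. Autophagy genes had 2 of 37 called lower, among them the phosphoinositide-binding protein WIPI1 at -0.60 ± 0.11 (adjusted p = 2.63e-05). NF-kB targets had 1 of 19 called higher and 3 lower, with RELB at -0.60 ± 0.15 (adjusted p = 0.00215), and cholesterol synthesis had 2 of 26 called lower, among them SREBF2, an activator of sterol synthesis genes, at -0.40 ± 0.05 (adjusted p = 1.3e-07). NRF2 and glutathione genes had 1 of 22 called higher and 1 lower, the higher one being the peroxiredoxin PRDX1 (log2 0.40 ± 0.06; adjusted p = 1.71e-06), and glycolysis had 1 of 22 called in each direction, with PKM higher at 0.42 ± 0.08 (adjusted p = 0.000281). Of the 8 subunits of the TRiC chaperonin, listed after their values were seen, CCT7 was called higher at 0.36 ± 0.06 (adjusted p = 3.2e-05). Of 451 ZNF genes 27 were called higher and 8 lower, 3 lower without WT_NTG replicate 3, and ZNF530 had 13.3, 16.98 and 13.6 CPM in WT_S13 against 5.01, 4.69 and 4.48 CPM in WT_NTG libraries (log2 1.62 ± 0.22; adjusted p = 4.57e-07).

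The called genes shared features that the comparison did not use. Genes called higher had a median transcript length of 2112 bases and 5 exons, those called lower 4481.5 bases and 14 exons, and all tested genes 3277 bases and 9 exons. Length, exon number and GC content are those of the canonical GENCODE transcript, over the genes matched to one. The median GC content was 48.0% for genes called higher, 54.7% for genes called lower and 48.6% over all. In 10 equal bins of the 13388 coding genes by transcript length, 13.1% of the shortest bin (295 to 1349 bases) were called higher and 1.94% lower, with a median log2 change of 0.109. In the longest bin (7816 to 34626 bases) 1.34% were called higher and 8.59% lower, with a median of -0.112. Single-exon coding genes had 22.5% of 285 called higher and 2.46% lower, and genes with over 15 exons 1.9% higher and 8.64% lower. The lists described above differ in the same property, with a median length of 492 bases for the tested histones and 6678 bases for the surface and matrix genes, but 785 bases for the cytosolic ribosomal proteins, which had no calls.

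The length trend was present in each WT_S13 library. Set against the WT_NTG mean, the shortest bin had a median of 0.11, 0.12 and 0.07 in the WT_S13 libraries and the longest bin -0.12, -0.10 and -0.09. The median level of the shortest bin less that of the longest bin was -0.758 to -0.646 on the log2 scale in WT_S13, -0.901 to -0.84 in WT_NTG and -1.02 to -0.743 in UT libraries, so the UT range reaches into that of WT_S13. Against the same WT_NTG libraries, the shortest bin had a median log2 change of 0.07 with WT_S3, 0.07 with WT_S4 and 0.09 with WT_S7. The longest bin had -0.06, -0.01 and -0.03 in that order, so the trend was not particular to crRNA-13. The part of RNA quality, library preparation or the shared WT_NTG libraries in this trend was not tested.

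**Figure D4:**
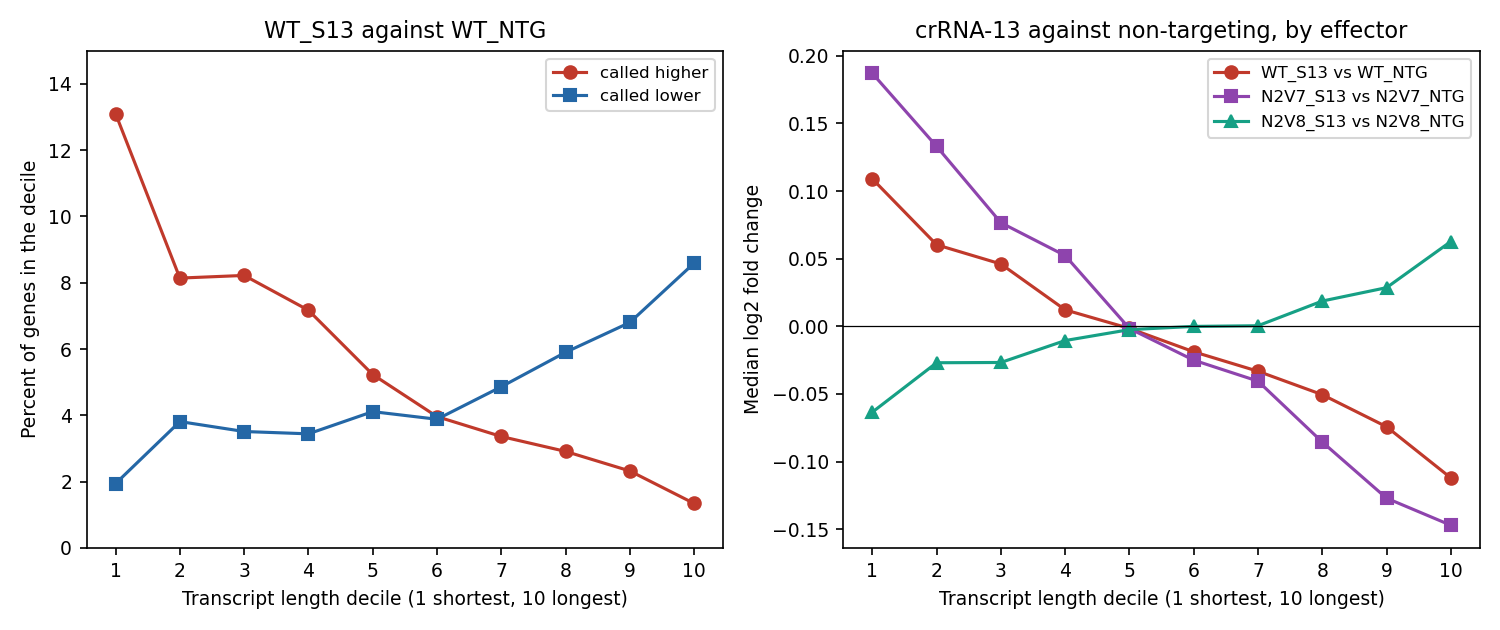
Left, percent of coding genes called higher and lower in WT_S13 against WT_NTG in 10 bins of transcript length, shortest to longest. Right, the median log2 change of crRNA-13 over the non-targeting crRNA per bin for the native effector, N2V7 and N2V8. For the native effector the median is 0.109 in the shortest bin and -0.112 in the longest. N2V8 slopes the other way against its own control, which differed from WT_NTG in the level of short against long transcripts.

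RNAs of low level were detected more often in WT_S13. A count of at least 1 was found for 19696, 19434 and 19557 genes in WT_S13 libraries, against 18466, 18392 and 18636 in WT_NTG and 17914 to 18287 in UT libraries. The library totals were 13951684, 11313806 and 12384970 counts in WT_S13 and 12228811, 12395205 and 13932338 in WT_NTG, which overlap. Of the 48 libraries outside the comparison, 3 exceeded the lowest WT_S13 library. For long non-coding RNAs the numbers were 3368, 3167 and 3265 in WT_S13 against 2750, 2700 and 2814 in WT_NTG libraries. Among the 1329 tested long non-coding RNAs 13.7% were called higher and 0.903% lower, against 5.65 and 4.66% of 13523 coding genes, and the median log2 change was 0.25 for the non-coding and -0.0099 for the coding genes. As with the histones, an RNA rare in WT_NTG could be tested yet hardly be called lower. The imbalance of higher and lower calls is thus partly set by the filter. Genes too rare to be tested held 0.0874, 0.0886 and 0.0911% of the counts in WT_S13 libraries and 0.0612, 0.0572 and 0.0612% in WT_NTG libraries. Ribosomal RNA took 2.30, 1.79 and 2.03% of counts in WT_S13 and 3.15, 1.71 and 2.77% in WT_NTG libraries, which overlap.

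The high-fidelity effectors N2V7 and N2V8 were made to lessen collateral cleavage, and each was sequenced with crRNA-13 and with its own non-targeting control. Against their own controls, 11.4% of tested genes were called with N2V7 (1759 genes, 3.66% higher and 7.78% lower) and 2.44% with N2V8 (375 genes, 1.72% higher and 0.715% lower). The effect of crRNA-13 with the native effector differed from that with N2V8 for 2810 genes (18.3%), with 9.72% of tested genes more positive with the native effector and 8.55% more negative. It differed from that with N2V7 for 2289 genes (14.9%; 8.63% more positive and 6.26% more negative). These differences carry the changes of both effectors and the levels in each effector's own control, and some genes moved in opposite directions. The controls themselves were unlike. Of 15378 tested genes, 784 were called against UT in WT_NTG cells. With the non-targeting crRNA, 3204 were called against UT for N2V7 and 4604 for N2V8. C9orf72 had log2 changes of -0.15 ± 0.09 with the native effector, 0.07 ± 0.09 with N2V7 and -0.06 ± 0.10 with N2V8, and the differences of the native effector from N2V8 (-0.35 to 0.18) and N2V7 (-0.47 to 0.04, both 95% intervals) were not called.

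Histones differed between the effectors. H4C15 changed by 2.42 with the native effector against 0.07 with N2V8 (difference 2.36 ± 0.22; adjusted p = 1.83e-09) and 0.30 with N2V7 (difference 2.12 ± 0.22; adjusted p = 1.69e-08). Over the 29 tested histones, 17 were called higher with the native effector (median log2 change 1.35), 6 with N2V7 (median 0.676) and 4 with N2V8 (median 0.298), and none lower with any. The difference was more positive with the native effector for 11 genes against N2V8 and 7 against N2V7, and more negative for none. The H2B genes had medians of 1.07 with the native effector, 0.668 with N2V7 and 0.66 with N2V8, and H2BC21 rose by 1.65, 0.59 and 0.49 in that order. TIA1 had a log2 change of 1.08 with the native effector against -0.37 with N2V8 (difference 1.46 ± 0.17; adjusted p = 5.64e-08). AEN and BAX had differences from N2V8 of 0.93 ± 0.08 and 0.70 ± 0.10 (adjusted p = 9.4e-13 and 4.84e-07), and from N2V7 of 0.71 ± 0.08 and 0.79 ± 0.10 (adjusted p = 8.63e-10 and 3.6e-08). SNHG15 changed by 1.06 with the native effector, 0.13 with N2V7 and -0.09 with N2V8 (difference from N2V8 1.15 ± 0.12; adjusted p = 8.55e-10). Of 14 SR proteins, 7 were more positive with the native effector than with N2V8 and 6 than with N2V7, with SRSF3 at 0.51 with the native effector against -0.35 with N2V8 (adjusted p of the difference = 1.57e-09).

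In the stress response the effectors moved apart in both directions. ASNS had log2 changes of -0.62 with the native effector, 0.72 with N2V7 and 0.72 with N2V8, with calls toward higher levels for N2V7 and N2V8 against their own controls. The differences of the native effector were -1.35 ± 0.17 from N2V8 (adjusted p = 3.21e-07) and -1.35 ± 0.17 from N2V7 (adjusted p = 3.16e-07). SLC7A11 had -0.84 with the native effector against 0.84 with N2V8 (difference -1.68 ± 0.28; adjusted p = 3.12e-05). Over the 79 genes, 4 were called higher and 24 lower with the native effector, 13 higher and 1 lower with N2V7, and 16 higher and 0 lower with N2V8, and the difference from N2V8 was called for 42 genes toward lower and 6 toward higher levels in the native effector. FN1 had -0.70 with the native effector against 0.44 with N2V8 (difference -1.14 ± 0.12; adjusted p = 1.53e-09), and of the 165 surface and matrix genes 62 differed from N2V8 toward lower and 0 toward higher levels in the native effector. Against N2V7, 22 of these genes differed toward lower and 12 toward higher levels, and N2V7 itself had 23 called lower and 3 higher with crRNA-13, whereas N2V8 had 0 lower and 10 higher. Mitochondrial ribosomal proteins differed from N2V8 for 37 of 78 genes, all more positive with the native effector, with a median change of 0.184 with the native effector, 0.176 with N2V7 and -0.11 with N2V8. Against N2V7, 8 of them were more positive and 5 more negative with the native effector. The median length-bin change ran from 0.187 in the shortest to -0.147 in the longest bin with N2V7 and from -0.0634 to 0.0627 with N2V8. The median level of the shortest bin less that of the longest differed between the controls. It was -0.901 to -0.84 in WT_NTG, -0.808 to -0.703 in N2V7 and -0.523 to -0.422 in N2V8 libraries with the non-targeting crRNA. With crRNA-13 it was -0.758 to -0.646 in WT_S13, -0.44 to -0.374 with N2V7 and -0.603 to -0.496 with N2V8.

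**Figure D5:**
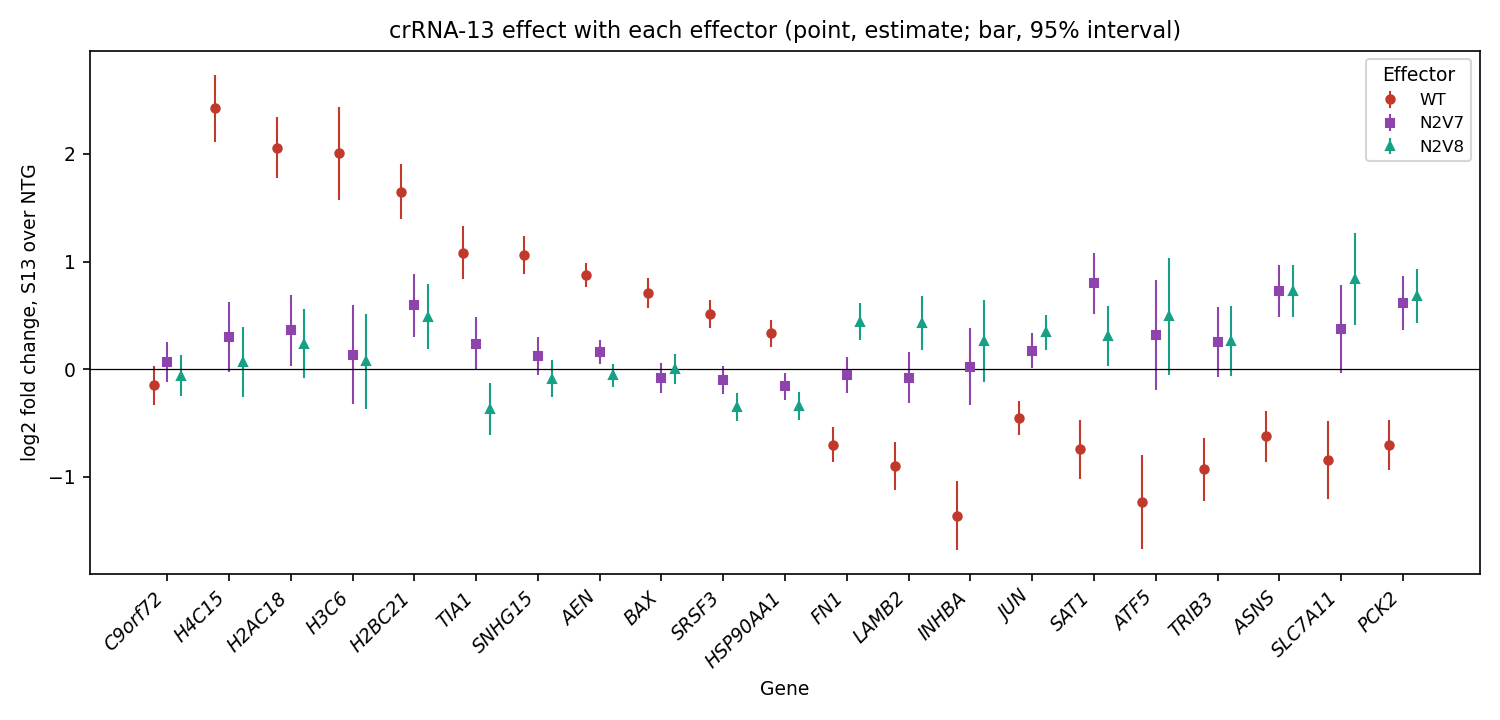
Log2 change of crRNA-13 over the non-targeting crRNA of the same effector, with 95% intervals, for 21 genes with the native effector, N2V7 and N2V8. H4C15 lies at 2.42, 0.30 and 0.07 in that order, and ASNS at -0.62, 0.72 and 0.72.

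Other crRNAs against C9orf72 with the native effector were compared with the same WT_NTG libraries, so their values share these controls and are set side by side only. Histone calls were present with each of them, with 13 of 29 higher with WT_S3 (2.09% of all tested genes called higher), 16 with WT_S4 (2.01%) and 14 with WT_S7 (9.37%), beside 17 with WT_S13. WT_S7 had the most calls of these, 2952 genes (19.2%, with 9.83% lower), and 41 of 79 stress response genes called lower. H2AC18 had log2 changes of 2.06 with WT_S13, 3.51 with WT_S3, 2.66 with WT_S4 and 2.12 with WT_S7. AEN had 0.87 with WT_S13 and -0.27, -0.13 and -0.09 with WT_S3, WT_S4 and WT_S7, and BAX 0.71 with WT_S13 and 0.04, 0.17 and 0.18. ASNS had -0.62 with WT_S13, 0.08 with WT_S3, -0.04 with WT_S4 and -1.28 with WT_S7. Against UT, 784 genes (5.1%) were called in WT_NTG, where H4C15 had a log2 change of 0.26, ATF5 of -0.52 and CDKN1A of -0.09.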

How the data were processed

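RNA of HEK293T cells was sequenced as poly(A)-selected, stranded, paired-end libraries on 1 lane. The authors quantified reads against NCBI transcripts (GRCh38) with Salmon (version 1.5.2, per the submitters' processing notes), and the deposited table holds estimated counts for 38137 genes, scaled for transcript length with tximport by the authors. A deposited TRUE or FALSE mark of genes kept by the authors (15464; other kind of value, rule not stated) served only as an alternative filter.

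Counts were rounded and analysed in R (version 4.3.3) with edgeR (version 4.0.16): filterByExpr (15378 genes, the rest held 0.0723% of counts), TMM and quasi-likelihood F tests over 54 libraries in 18 groups with 1 RUVr factor. The factor took 23.4% of residual variance, and 1 library outside the comparison (N2V7_S4 replicate 2) held 63.4% of its weight. A call needed a fold over 1.25 and a Benjamini-Hochberg adjusted p under 0.05 over all genes and the 3 S13 comparisons (3 effector differences, 9 additional crRNA and 3 NTG against UT comparisons formed their own families). Intervals are 95%, and all tests two-sided. The study names limma-trend, which was run as an alternative (limma version 3.58.1), as was DESeq2 (version 1.42.0). The code was tested on simulated data.

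Members, gene lists and the rule for named genes were chosen with earlier results of these data known. Named were C9orf72, the largest separate changes at a log2 CPM (mean) of 2 or above, the most abundant called genes, the called list members of largest change, key list members and the largest effector differences. Loci with only a LOC symbol (83 higher, 9 lower of 682) were counted, not named. Residuals of same-numbered WT_S13 and WT_NTG libraries correlated at -0.0323, -0.0525 and -0.0461, so numbers were not treated as pairs. No 2 replicates were the same library by a chi-square comparison of counts (3.07 to 6.5 per gene). The crRNA-13 spacer and some genes are not reported here.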

Additional observations from a re-analysis of the deposited data

Results flagged for a closer look

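The effect of crRNA-13 differed between effectors by the interaction test for many genes, 2810 between the native effector and N2V8 and 2289 between the native effector and N2V7. Among genes called in WT_S13 against WT_NTG, the largest differences from N2V8 (native effector less N2V8, log2) were 3.56 for the readthrough locus RPL36A-HNRNPH2, 2.36 for H4C15, 1.97 for the zinc-finger gene ZNF530, 1.93 for H3C6 and 1.82 for H2AC18 on the positive side. On the negative side they were -2.17 for AKNA, -2.11 for CRYAB, -1.76 for the fucosyltransferase FUT1, -1.73 for ATF5 and -1.68 for SLC7A11. In each of the negative 5 the change was negative with the native effector (-1.305, -1.27, -0.84, -1.23 and -0.84) and positive with N2V8 (0.87, 0.84, 0.93, 0.49 and 0.84).

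The largest differences from N2V7 (native effector less N2V7, log2) were 3.26 for RPL36A-HNRNPH2, 2.23 for C1orf162, 2.12 for H4C15, 1.87 for H3C6 and 1.697 for H2AC18. On the negative side they were -2.03 for CGA, the common chain of glycoprotein hormones, -1.76 for CRYAB, -1.55 for ATF5, -1.54 for SAT1, which catabolises polyamines, and -1.52 for the annexin ANXA3. SAT1 had 180.5, 166 and 166 CPM in WT_S13 and 274, 278 and 303 CPM in WT_NTG libraries, a log2 change of -0.74 ± 0.13 (adjusted p = 0.000119 in edgeR's test), against 0.80 with N2V7. The adjusted p of ANXA3 in WT_S13 against WT_NTG (log2 -0.60) was 0.0503 without WT_S13 replicate 2, and that of CRYAB was over 0.05 with any 1 of 3 libraries left out. The 2 sets of differences share the WT_S13 and WT_NTG libraries.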

How the results depend on the processing

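Against 1656 genes called in WT_S13 over WT_NTG, alternatives gave 1201 (adjusted p under 0.01) to 1816 (no low-count filter), with 1318 without the factor of unwanted variation, 1611 with limma-trend, 1560 with DESeq2 and 1723 in a fit of the 6 libraries alone. With the replicate block the count was 1662, and 1639 of the 1656 genes kept their call in the same direction; C9orf72 changed by -0.15 there, the histones kept 17 calls and the stress response genes 24. Leaving out 1 of the 6 libraries gave 1447 to 1691 calls, 15 to 18 histones called higher, 21 to 27 stress response genes called lower and a C9orf72 change of -0.24 to -0.05, never called. It gave 2506 to 2788 genes that differed from N2V8 and 2001 to 2314 that differed from N2V7, and 899 of the 1656 called genes (54.3%) kept their call in all 6 such fits. Differences from N2V7 were called for 1445 genes at an adjusted p under 0.01, against 2289 at 0.05. Neither C9orf72 nor the other 143 genes given above changed direction in any alternative, although FGF21 was not tested in the fit of the 6 libraries alone. Depth limits the rarest genes: H4C4 rests on 48 counts in WT_S13 and 1 in WT_NTG libraries. A fit of the 6 libraries alone could not be made for the effector differences, which need the other effectors' libraries.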

Other observations

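Of the most abundant called genes outside the groups above, PPIA, the target of cyclosporin, had 1103, 1074 and 997 CPM in WT_S13 and 824, 841 and 807 CPM in WT_NTG libraries (log2 0.36 ± 0.06; adjusted p = 4.68e-05 in edgeR's test). TIGD1, a gene derived from a transposon, had 16.8, 17.6 and 18.1 CPM in WT_S13 and 7.03, 7.31 and 5.62 CPM in WT_NTG libraries (log2 1.397 ± 0.15; adjusted p = 1.08e-09). For both genes the lowest WT_S13 library was above the highest WT_NTG library. HCN4, a pacemaker channel, had 3.12, 2.15 and 3.95 CPM in WT_S13 and 5.58, 7.15 and 7.05 CPM in WT_NTG libraries (log2 -1.09 ± 0.24; adjusted p = 0.000659), and PLAU, the protease urokinase, had 6.04, 3.27 and 5.65 CPM in WT_S13 and 10.7, 9.69 and 8.04 CPM in WT_NTG libraries (log2 -0.90 ± 0.18; adjusted p = 0.000164). CGA, the common chain of glycoprotein hormones, and SH2D3C, an adaptor protein, had log2 changes of -1.01 ± 0.24 and -1.01 ± 0.18 (adjusted p = 0.00244 and 2.52e-05). NEAT1, the scaffold RNA of paraspeckles, had 149, 159.6 and 123 CPM in WT_S13 and 109.7, 108 and 132 CPM in WT_NTG libraries, which overlap, and was not called (log2 0.30 ± 0.11; adjusted p = 0.0593).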
